A study of Mus musculus with 46 samples.

Results

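Chrna2 encodes the alpha2 subunit of the nicotinic acetylcholine receptor, and this account compares single oriens-lacunosum moleculare (OLM) cells in which it was read with those in which it was not. Of 46 cells, 16 held at least 1 Chrna2 read (34.8%, exact 95% interval 21.4 to 50.2) and 30 held none. The cells were placed on a side by a measured value, the Chrna2 read count, so all Chrna2 values below describe the split and carry no test. All other genes come from the same libraries, and their differences between the sides are likewise given as descriptions.

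OLM cells are inhibitory interneurons of the hippocampus. Their cell bodies lie in stratum oriens, and their axons reach the distal dendrites of pyramidal cells in stratum lacunosum-moleculare, where input from the entorhinal cortex arrives. They make somatostatin and receive cholinergic input from the septum. Chrna2 is widely used as a marker of hippocampal OLM cells, and its product joins with beta subunits to form an acetylcholine-gated cation channel.

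The study took cytosol of single cells through a patch pipette and sequenced its RNA, in order to compare OLM cells labelled in different transgenic mouse lines. Of the 46 cells, 23 came from an Htr3a Cre driver line and 23 from an Sst Cre driver line. In the former, Cre follows the gene of an ionotropic serotonin receptor subunit, and in the latter the somatostatin gene. All were labelled as OLM cells that passed quality control, from mice aged postnatal day 21 to 30, and no treatment is named. A pipette draws part of 1 cell, so fewer molecules in the cell and fewer molecules drawn cannot be told apart. No animal is named, so each line counts as 1 sample, cells are not replicates of a condition, and no test or p-value is given.

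Chrna2 (ENSMUSG00000022041) lies on chromosome 14, 66135039 to 66152948 on the plus strand of GRCm38, and no other annotated gene overlaps it. Of the 31-base words of its transcripts, 0.746% also occur in transcripts of other genes. In the Htr3a line, 10 of 23 cells held a read (43.5%, 23.2 to 65.5). Their levels were 213, 108, 99.9, 77.3, 65.8, 44, 10.2, 3.98, 1.34 and 0.295 reads per 1000000 assigned reads (CPM). In the Sst line, 6 of 23 cells held a read (26.1%, 10.2 to 48.4), at 214, 181, 134, 8.44, 1.40 and 0.0642 CPM. The levels of both lines spanned from a single read to more than 200 CPM, and 10 cells reached 10 CPM, 7 of the Htr3a line and 3 of the Sst line.

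**Figure D1:**
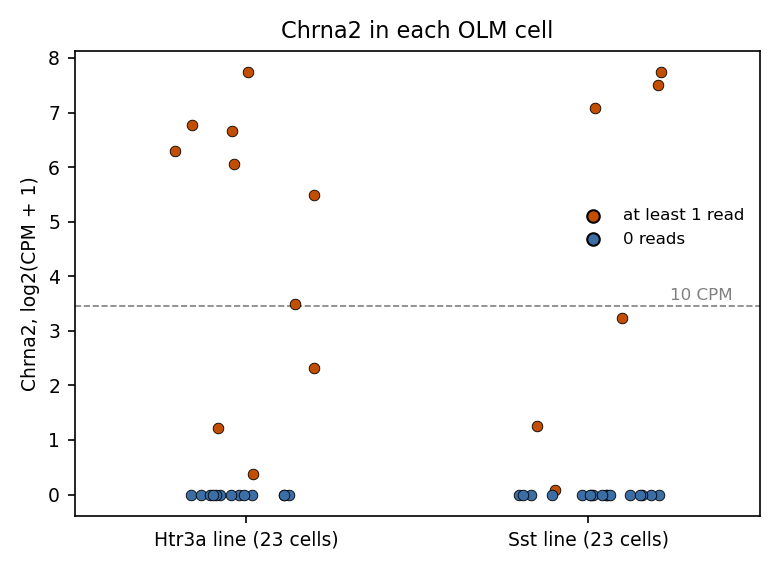
Chrna2 as log2(CPM + 1), vertical axis, in each of the 23 cells of the Htr3a line and the 23 cells of the Sst line. Each point is a cell (spread sideways for display), orange with at least 1 read and blue with 0 reads, and the dashed line marks 10 CPM, which 7 cells of the Htr3a line and 3 cells of the Sst line reached.

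Just inside the threshold lay 2 cells with 1 read each, Htr3a line replicate 20 and Sst line replicate 20, followed by Sst line replicate 22 with 10 reads. Just outside lay the 30 cells with 0 reads, in which 3 reads would have been 0.0956 to 0.532 CPM. When each cell was thinned to 3000000 reads, 15 cells still held a Chrna2 read, and Sst line replicate 20 did not. Htr3a line replicate 20 also held only 24 reads of Gad1, which encodes a GABA-synthesising enzyme, and Htr3a line replicate 4 on the undetected side held 4.

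The detected side drew more of its cells from the Htr3a line, within wide intervals. The Htr3a line gave 62.5% of the detected cells (10 of 16, 35.4 to 84.8) and 43.3% of the undetected cells (13 of 30, 25.5 to 62.6). The share was 70% among the 10 cells with at least 10 CPM of Chrna2. Values within each line are therefore given beside the pooled ones.

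Depth overlapped between the sides. Assigned reads per cell, in units of 1000000, had a median of 14.6 in detected cells (3.39 to 26.1) and 16.6 in undetected cells (5.64 to 31.4). Within the lines the medians were 15.5 and 15.3 in the Htr3a line but 10 and 17.1 in the Sst line, where detected cells had fewer reads. The part of this gap in the differences of the Sst line was not tested. The number of genes with a read had a median of 6905.5 in detected cells (4064 to 12693) and 7076 in undetected cells (3225 to 8793), and after thinning the medians were 6529.5 and 6731.5. The order of the medians turned between the lines. In the Htr3a line they were 8317 genes in detected and 7845 in undetected cells, and in the Sst line 5441 and 7044. The ranges of the sides overlapped in both lines.

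**Figure D2:**
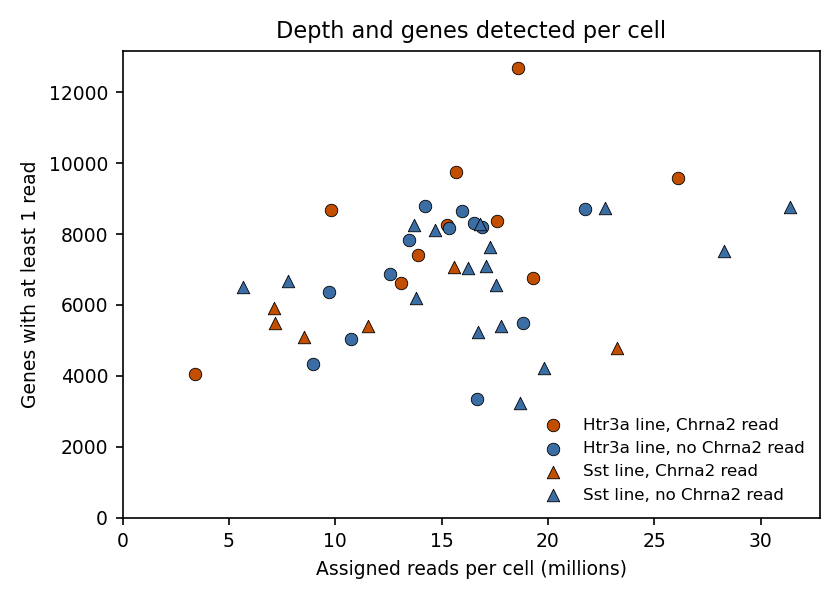
Genes with at least 1 read, vertical axis, against assigned reads, horizontal axis in units of 1000000 reads, for each of the 46 cells. Circles are Htr3a-line and triangles Sst-line cells, orange with and blue without a Chrna2 read, and the sides overlap on both axes.

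The difference of a gene is its mean log2(CPM + 1) in detected cells minus that in undetected cells, and ± marks the SD between cells. It was computed for the 11195 genes, Chrna2 left out, whose mean over all cells was at least 0.5. The median difference was -0.02, and 81.1% of the genes lay between -1 and 1. At least 1 higher in detected cells were 1038 genes (9.27%), and at least 1 lower were 1077 (9.62%), out of a range of -3.93 to 3.57. Within the Htr3a line 2284 genes were at least 1 higher (20.4%) and 1422 at least 1 lower (12.7%). In the Sst line 1458 were at least 1 higher (13%) and 3226 at least 1 lower (28.8%). The within-line medians of 0.16 and -0.35 lay on either side of the pooled one, in the same order as the numbers of genes detected.

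The lines share no cells, and the genes that differed in 1 line were not, as a body, those that differed in the other. Of the genes at least 1 higher in the Htr3a line, 14.3% were so in the Sst line, beside 13% of all genes. Of those at least 1 lower in the Htr3a line, 30.5% were so in the Sst line, beside 28.8% of all genes. In all, 327 genes were at least 1 higher in both lines and 433 at least 1 lower, while 664 were higher in the Htr3a line and lower in the Sst line and 169 the reverse. The sign was the same in both lines for 47.8% of genes. Across genes, which are not independent replicates, the correlation of the within-line differences was 0.02, and -0.01 over the 2354 genes with a mean of at least 5. With the cells split at 10 CPM of Chrna2 it was 0.04.

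**Figure D3:**
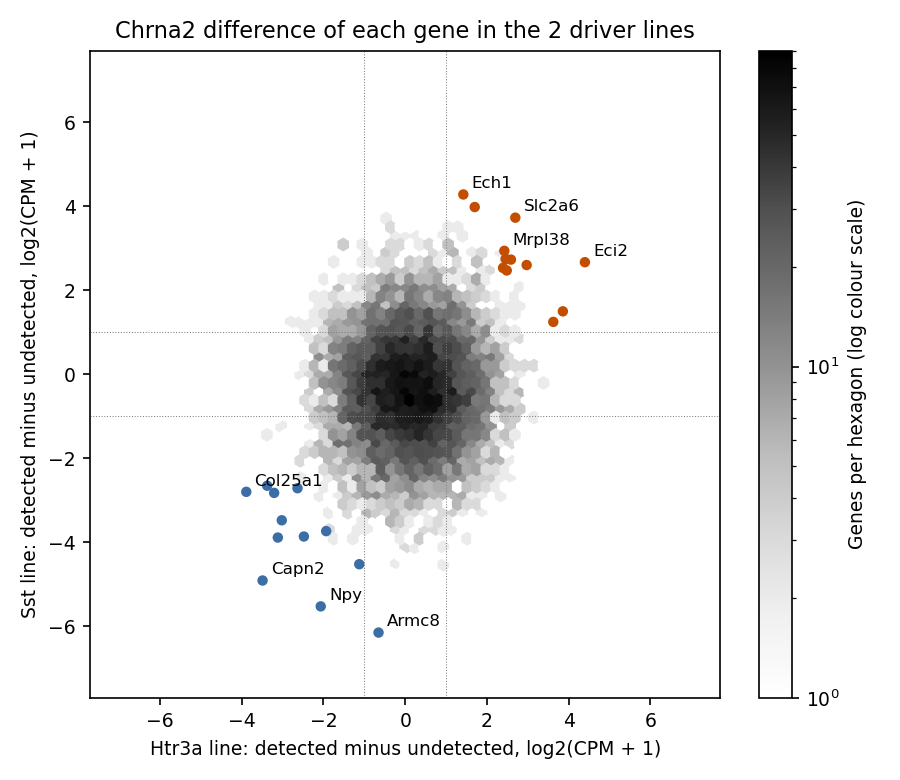
Difference of each gene (detected minus undetected cells, log2(CPM + 1)) in the Htr3a line, horizontal axis, and in the Sst line, vertical axis, for 11195 genes, with darker hexagons for more genes on a log colour scale. Blue and orange points are the 12 lowest and 12 highest genes taken by the naming rule, which asks for the same sign in both lines, and dotted lines mark -1 and 1. The cloud of all genes has no slope (r = 0.02 across genes).

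Nicotinic receptor genes came next. Of 15 measured subunits besides Chrna2, 4 passed the minimum mean, and 0 of them lay at or past 1 in either direction. Of all genes, 9.27% were at least 1 higher and 9.62% at least 1 lower. Chrnb2, the beta subunit that assembles with alpha2 and alpha4, was read in 16 of 16 detected and 30 of 30 undetected cells. Its levels ran from 0.352 through a median of 57.2 to 129 CPM in detected cells, and from 0.334 through 53.4 to 288 CPM in undetected cells. The sides overlapped throughout. The gene Adar overlaps Chrnb2, and 15.05% of the words of Chrnb2 transcripts occur in other genes. Some reads may therefore not be told apart. The Chrnb2 difference of 0.06 was 0.64 in the Htr3a line and -0.80 in the Sst line, and -0.02 with a pseudocount of 10. Chrna4, the most common partner of Chrnb2 in the brain, was read in 5 detected and 7 undetected cells (difference 0.11). Chrnb3, an accessory subunit, was read in 4 and 8 cells (-0.62).

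Chrna7, whose product forms homomeric channels with high calcium permeability, was read in 14 of 16 detected and 18 of 30 undetected cells. Its median was 18.9 CPM in detected cells (0 to 602) and 23.8 CPM in undetected cells (0 to 374). The difference of 0.66 joined -0.82 in the Htr3a line with 2.31 in the Sst line. Among the 16 detected cells the high Chrna7 values stood in the cells with most Chrna2. The 5 cells with the highest Chrna2, from 214 down to 108 CPM, held 430, 188, 371, 269 and 602 CPM of Chrna7, and the other 11 held 0 to 61.8 CPM. The rank correlation with Chrna2 over the 16 cells, which differ in depth and in material drawn, was 0.68. Lypd6, which encodes a membrane-anchored modulator of nicotinic receptors, had 0.66. These are descriptions of genes singled out after their values were seen, and Gad1 reads had a rank correlation of 0.60 with Chrna2 in the same cells.

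The remaining subunits were sparse on both sides. Chrna5 was read in 3 detected and 1 undetected cells, Chrna3 in 1 and 0, Chrna1 in 5 and 3, and Chrnb1 in 3 and 6. Chrne was read in 1 detected and Chrng in 1 undetected cell, and Chrna6, Chrna9, Chrna10, Chrnb4 and Chrnd in none. Among genes for nicotinic receptor chaperones and prototoxins, 1 of 8 above the minimum mean was at least 1 higher and 1 at least 1 lower. These counts stood beside 9.27% and 9.62% of all genes, and the list's median was 0.17. Ric3, a chaperone that helps nicotinic receptors fold and reach the membrane, was the lower one. It had a median of 38.7 CPM in detected cells (0 to 287) and 150 CPM in undetected cells (0 to 790), with a difference of -2.23 (-2.02 in the Htr3a line, -2.92 in the Sst line). The Ric3 ranges overlapped. The gene Tub overlaps Ric3, and 1.82% of the words of Ric3 transcripts occur in other genes, so some reads may not be told apart. Lypd6b was the higher one, read in 16 of 16 detected and 27 of 30 undetected cells (difference 1.28, 1.44 and 0.98 within the lines). Lypd6 was read in 16 and 28 cells (0.98, but -0.35 in the Htr3a line and 2.19 in the Sst line).

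Of the other cholinergic genes, Ache, the enzyme that breaks down acetylcholine, had a median of 634 CPM in detected cells and 696 CPM in undetected cells (difference -0.81, and -0.25 without Htr3a line replicate 20). Chrm3, a muscarinic receptor coupled to Gq, was read in 13 of 16 detected and 15 of 30 undetected cells, with a difference of 0.996. It was 0.28 in the Htr3a line, 1.55 in the Sst line and -0.90 without the libraries rich in microglial transcripts, and the summed counts of the sides were nearly level (19.1 and 18.6 CPM).

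OLM identity genes were read on both sides. Of 14 measured OLM identity genes, 7 were higher, 3 of them by at least 1, and 7 lower, 2 of them by at least 1, with a median of 0.03. Of all genes, 49% were higher, 9.27% were at least 1 higher and 9.62% at least 1 lower. Sst was read in 46 of 46 cells, with a median of 17055 CPM in detected cells (1726 to 101725) and 9542 CPM in undetected cells (1274 to 103853). Its difference of 0.91 was smaller than the SD between cells, 1.54 in detected and 1.5 in undetected cells, and lay at 1.17 in the Htr3a line and 0.03 in the Sst line. Reln, the extracellular protein reelin, was read in 16 of 16 and 29 of 30 cells, with a difference of -0.06 that turned sign with the scaling (0.07 with TMMwsp factors). Crhbp, a binding protein for corticotropin-releasing hormone, was read in 46 of 46 cells (-0.76, but 0.10 in the Sst line, and -0.35 without Htr3a line replicate 20). Elfn1, a postsynaptic adhesion protein that shapes facilitating input onto OLM cells, was read in 12 and 21 cells (-0.15).

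Npy, the neuropeptide Y gene (chromosome 6, 49822710 to 49829507, GRCm38), was read less in cells with Chrna2. It was read in 10 of 16 detected cells (62.5%, 35.4 to 84.8) and 27 of 30 undetected cells (90%, 73.5 to 97.9), intervals that overlap. The levels ran from 0 through a median of 13.4 to 2563 CPM in detected cells, and from 0 through 214 to 11796 CPM in undetected cells. In the Sst line 4 of the 6 detected cells held no Npy read and the others held 260 and 36.2 CPM, while 14 of 17 undetected cells held a read. In the Htr3a line it was read in 8 of 10 and 13 of 13 cells. At a minimum of 10 CPM of Npy these were 7 of 10 (70%) and 10 of 13 (76.9%), beside 2 of 6 and 14 of 17 in the Sst line. The mean was 4.01 ± 4.05 in detected and 7.48 ± 4.49 in undetected cells. The difference of -3.47 was -2.07 in the Htr3a line, -5.52 in the Sst line and -1.85 with the split at 10 CPM of Chrna2.

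Summed over cells, Npy took 314 CPM in detected cells (exact Poisson 95% interval 312 to 316) and 1620 CPM in undetected cells (1616 to 1623). Such intervals cover counting error only, since copies of 1 molecule made by PCR are not marked. Leaving out Htr3a line replicate 12 brought the detected side to 176 CPM, and leaving out Sst line replicate 3 brought the undetected side to 1234 CPM.

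Pnoc, the prepronociceptin gene (chromosome 14, 65400673 to 65425472), went the other way. It was read in 13 of 16 detected cells (81.2%) and 14 of 30 undetected cells (46.7%), and in the Sst line in 6 of 6 and 7 of 17. At a minimum of 10 CPM of Pnoc these were 11 of 16 (68.8%) and 13 of 30 (43.3%), and 4 of 6 and 6 of 17 in the Sst line. The median was 46.5 CPM in detected cells (0 to 1626) and 0 CPM in undetected cells (0 to 630). The difference of 1.87 was 1.21 in the Htr3a line and 2.64 in the Sst line, and 4.33 once 18 libraries rich in microglial transcripts (described at the end) were left out. The summed counts differed little, 100 CPM against 84.6 CPM. The former was 77.0 CPM without Htr3a line replicate 20, and the latter was 51.0 CPM without Sst line replicate 1. The log2 ratio of the summed levels, 0.24, became -0.13 without the first of these cells and 0.96 without the second.

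Calb1, the calcium-binding protein calbindin, was read in 10 of 10 detected and 8 of 13 undetected cells of the Htr3a line (difference 3.48). In the Sst line it was read in 3 of 6 and 11 of 17 cells (-0.98), so the pooled 1.71 did not hold in both lines, and it was -0.06 without the libraries rich in microglial transcripts. Lhx6, a transcription factor of interneurons from the medial ganglionic eminence, was read in 13 of 16 and 26 of 30 cells, with a difference of -1.62 (-1.01 and -3.16). With the split at 10 CPM of Chrna2 it was -0.12. Nxph1, Satb1, Kcnc1 and Htr1f had pooled differences between -0.30 and 0.57.

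**Figure D4:**
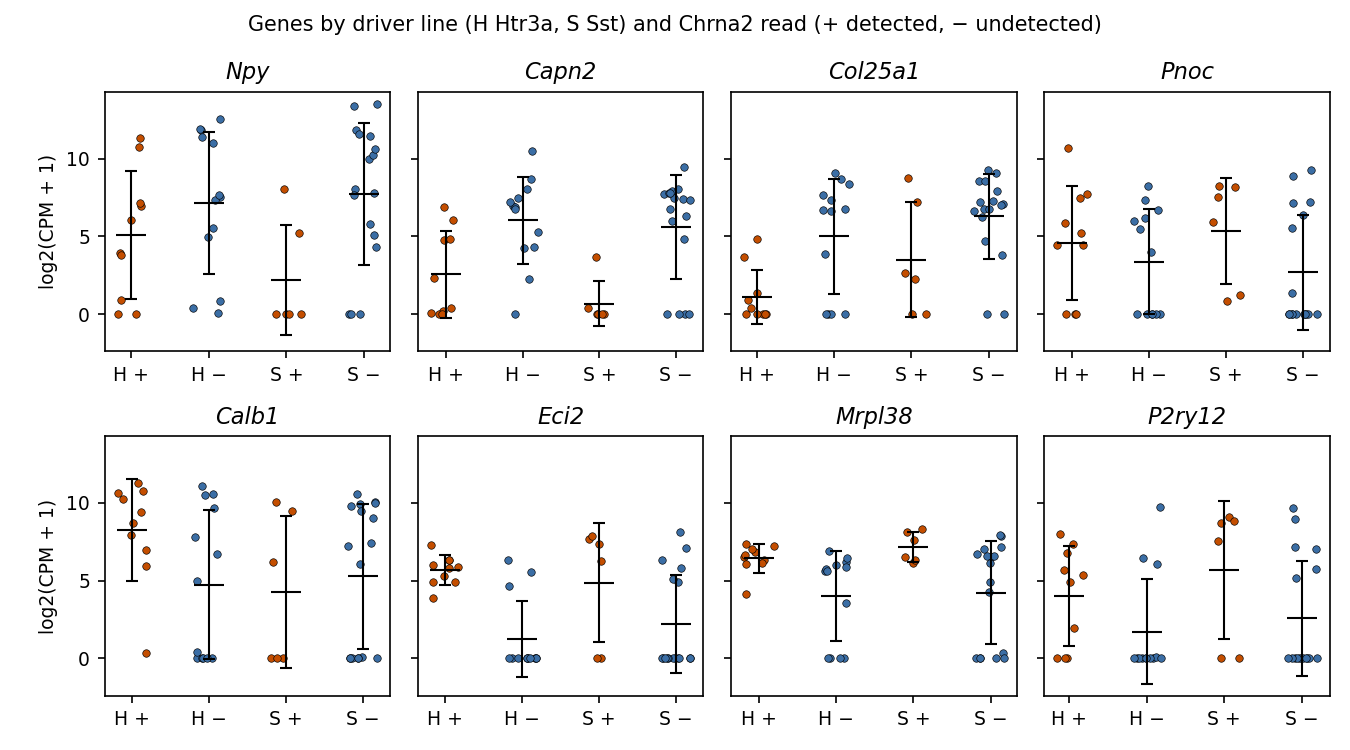
Level as log2(CPM + 1), vertical axis, of 8 genes in each cell, grouped by driver line (H, Htr3a line; S, Sst line) and Chrna2 read (+, orange, 10 and 6 cells; −, blue, 13 and 17 cells). Bars mark the mean and the SD between cells. Npy, Capn2 and Col25a1 are lower and Pnoc, Eci2, Mrpl38 and P2ry12 higher in cells with a read in both lines, Calb1 is higher in the Htr3a line and lower in the Sst line, and the points of the groups overlap in each panel.

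Genes that give cortical somatostatin cell types their names were mostly sparse. Of 30 measured, 10 passed the minimum mean. Of these, 0 were at least 1 higher and 2 at least 1 lower, beside 9.27% and 9.62% of all genes. The 2 lower ones were Cbln4, a secreted synaptic organiser, read in 3 of 16 and 14 of 30 cells (-2.78), and Hpse, heparanase, read in 1 of 16 and 11 of 30 (-1.29). Tac2, a tachykinin gene, was read in 5 detected and 2 undetected cells (0.88), all 5 in the Htr3a line, and its summed 148 CPM became 1.89 CPM without Htr3a line replicate 17. Myh8, which names some cortical somatostatin types, was read in 3 detected cells and no undetected cell, at no more than 9.68 CPM. Htr1d was likewise read in 3 detected cells and no undetected cell, at up to 11.4 CPM. Etv1, Chodl, Crhr2, Tacr3, Sema3c and Prdm8 were read in 1 cell of the 46, Htr3a line replicate 10, which had the most genes detected (12693). Nts was read in that cell at 82.2 CPM and in 1 other detected cell at 2.33 CPM.

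The genes lowest in detected cells were taken by a rule that asks for the same sign and a size of at least 0.5 in both lines, which 1689 genes met. Their sign and size are therefore what chose them. Capn2, the large subunit of the calcium-dependent protease m-calpain (chromosome 1, 182467260 to 182517608), was lowest at -3.93 (-3.49 and -4.91 within the lines). Its median was 0.219 CPM in detected cells (0 to 119) and 120 CPM in undetected cells (0 to 1407), with reads in 10 of 16 and 25 of 30 cells, and 24.9% of its 31-base words occur in other genes. Col25a1, a transmembrane collagen of neurons (chromosome 3, 130131501 to 130599877), followed at -3.72 (-3.89 and -2.80). It had a median of 0.594 CPM in detected cells (0 to 436) and 109 CPM in undetected cells (0 to 626), and its summed 22.6 CPM became 9.07 CPM without Sst line replicate 22. The log2 ratio of its summed levels was -2.97, and -4.19 to -2.70 with 1 cell left out at a time. The highest detected cells for Capn2 were 4 of the Htr3a line, at 26.5, 27.7, 64.8 and 119 CPM. For Col25a1 they were 2 of the Sst line, at 149 and 436 CPM, followed by Htr3a line replicate 10 at 27.9 CPM.

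After Npy came Olfm3, a secreted olfactomedin (-3.30, read in 5 of 16 and 21 of 30 cells), Foxred2 (-3.13), Armc8 (-3.01), Mtmr3, a phosphoinositide phosphatase (-3.00), and Prpf4b, a splicing-associated kinase (-2.97). Prkag1, a regulatory subunit of AMP-activated kinase, lay at -2.83, with 35% of its words shared with other genes. Cbln4 (-2.78), Lars, a leucyl-tRNA synthetase (-2.78), and Nfkbiz, a regulator of NF-kappaB targets (-2.75), closed the set. Armc8 was the least even between the lines, at -0.65 in the Htr3a line and -6.15 in the Sst line. The SDs between cells of these 12 genes ran from 2.01 to 4.49, and none of the 12 separated the sides.

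The highest gene in detected cells was Eci2, an enzyme of unsaturated fatty acid oxidation (chromosome 13, 34977748 to 35027096), at 3.57 (4.40 and 2.67 within the lines). It was read in 14 of 16 detected cells (median 59.9 CPM, 0 to 237) and 9 of 30 undetected cells (median 0 CPM, 0 to 283). In the Htr3a line all 10 detected cells held Eci2, at 13.5 CPM or more, and 3 of 13 undetected cells did, at 24.0, 46.3 and 79.4 CPM. Its summed level was 69.3 against 26.7 CPM. The former was 62.1 CPM without Sst line replicate 20, and the latter 14.2 CPM without Sst line replicate 9. Of the words of Eci2, 17.3% are shared. Ech1, another enzyme of fatty acid oxidation, was read in 15 of 16 and 15 of 30 cells (2.63).

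Slc2a6, a hexose transporter, was read in 14 of 16 and 11 of 30 cells, with medians of 106 and 0 CPM (3.16, 2.69 and 3.73 within the lines). Mrpl38, a protein of the mitochondrial ribosome, was read in 16 of 16 detected cells at 16.9 to 318 CPM (median 96.5), and in 21 of 30 undetected cells at up to 246 CPM (median 51.4). Its difference was 2.57 (2.42 and 2.94). Cox10, an assembly factor of cytochrome c oxidase, was read in 15 and 15 cells (2.65), and Rgs7, which limits signalling by G proteins, in 15 and 20 (2.63). Also in the set were Mgat4c (2.96), Ogfod2 (2.82), Ppapdc1b (2.82), Ccdc53 (2.59), Lrrc8d, a subunit of volume-regulated anion channels (2.55), and Nln, the peptidase neurolysin (2.54). For each of these 12 genes some undetected cells reached the levels of detected cells.

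Shares of cells with a read were compared too. Among genes read in 12 to 34 cells, the gaps towards undetected cells were widest for Nfkbiz (3 of 16 against 21 of 30), Ctcf, a chromatin-organising factor that overlaps Agrp (6 against 25), Cbwd1 (1 against 15), Tmem196 (0 against 13), Smek1 (5 against 22) and Rem2, a regulator of calcium channels (4 against 20). Towards detected cells they were widest for Eci2, Slc2a6, Ogfod2 (11 of 16 against 5 of 30), Man2b1, a lysosomal mannosidase (15 against 13), Adora1, the adenosine A1 receptor (13 against 8), and Mybph (10 against 3). Adora1 and Mybph overlap on chromosome 1. Of their words, 18.62% and 46.35% occur in other genes, so some of their reads may not be told apart.

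Genes of transmitter release and reception were counted next. Of 20 synaptic vesicle release genes above the minimum mean, 5 were higher and 15 lower in detected cells, 0 and 5 by at least 1, beside 49% of all genes higher, 9.27% higher by at least 1 and 9.62% lower by at least 1. The median was -0.53 (-0.45 and -0.63 within the lines). Among the lowest were Rims2, an active zone scaffold (-2, with -2.49 and -2.05 within the lines), and Syn2, a synapsin (-1.30). With the split at 10 CPM of Chrna2 the list's median was 0.18 and Syn2 was at 0.52. Without Sst line replicate 20, which had 1 Chrna2 read, Syn2 was at -0.84.

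Of 11 GABA receptor genes, 4 were at least 1 lower and 0 at least 1 higher, beside 9.62% and 9.27% of all genes. Gabra3 was at -1.88 and Gabra2 at -1.36, negative in both lines, and Gabrb2 was at -1.32, but 0.28 in the Sst line and 0.20 without the libraries rich in microglial transcripts. The median of the GABA receptor list was -0.35, 0.09 without Htr3a line replicate 20 and 0.35 with the split at 10 CPM. Grm5, a group I metabotropic glutamate receptor, was read in 13 of 16 and 30 of 30 cells (-1.83, with -2 and -1.78 within the lines). Of 17 ionotropic glutamate receptor genes, 0 were at least 1 higher and 1 at least 1 lower, Grin3a, which encodes an NMDA receptor subunit (-1.06). Grin3a was at -0.68 without Sst line replicate 5 and 0.95 without the libraries rich in microglial transcripts. The span of Grin3a overlaps the gene Ppp3r2, but 0 of the 12272 words of Grin3a transcripts occur in other genes.

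Of 9 genes of GABAergic identity, 4 were higher, beside 49% of all genes, and 5 lower, 0 by at least 1. The median of that list, -0.32, was 0.02 after thinning. Of 19 genes of neuropeptides and their processing, 3 were at least 1 higher and 1, Npy, at least 1 lower, beside 9.27% and 9.62% of all genes. Beside Pnoc, the higher ones were Pam, the enzyme that amidates peptides (1.71, with 1.70 and 2.02 within the lines, read in 15 of 16 and 26 of 30 cells), and Cck, the cholecystokinin gene. Cck was read in 5 detected cells and 1 undetected cell (1.21). Of 13 mitochondrially encoded genes, 11 were higher, beside 49% of all genes, and 2 lower, 0 by at least 1. Their median of 0.26 was 0.06 without Htr3a line replicate 10 and -0.01 with the split at 10 CPM.

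Voltage-gated channel genes were counted beside the 9.27% of all genes at least 1 higher and the 9.62% at least 1 lower. Of 25 potassium channel genes, 3 were higher and 3 lower by at least 1. Kcnc4, a fast-inactivating channel of the Kv3 family (1.79, but -0.05 without the libraries rich in microglial transcripts), lay at the top, and Kcna3 (-1.58) and Kcnd2 (-1.27) among the lowest. Of 7 sodium channel genes, 2 were at least 1 lower, among them Scn8a (-1.50). Of 12 calcium channel genes only Cacnb1 (1.15), and of 4 HCN channel genes only Hcn2 (1.02), were at least 1 higher. HCN channels carry the hyperpolarisation-activated current that is prominent in OLM cells.

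The counts of lineage and immediate early genes that follow stand beside 9.27% of all genes at least 1 higher and 9.62% at least 1 lower. Of lineage genes, 0 of 7 medial ganglionic eminence factors were at least 1 higher and 1 at least 1 lower, with a median of -0.70 (-1.01 and -0.29 within the lines). Of 5 caudal ganglionic eminence genes, 2 were higher and 3 lower, with a median of -0.10 (0.46 in the Htr3a line, -0.82 in the Sst line). The 2 higher ones, both by at least 1, were Npas1 (1.64, read in 16 of 16 and 22 of 30 cells, with n-R5s151 overlapping it) and Npas3 (1.16, also 16 and 22). The log2 ratios of their summed levels were 0.23 and 0.06. None of the 5 was at least 1 lower. Nr2f2 was read in 8 of 16 detected and 19 of 30 undetected cells and Htr3b in 4 and 7. Pvalb was read in 4 of 16 and 12 of 30 cells and the activity-regulated gene Arc in 7 and 18. The lines were not alike in these shares. In the Htr3a line Nr2f2 was read in 7 of 10 and 9 of 13 cells, Htr3b in 4 and 7, Pvalb in 3 and 3, and Arc in 6 and 7. In the Sst line Nr2f2 was read in 1 of 6 and 10 of 17 cells, Htr3b in 0 and 0, Pvalb in 1 and 9, and Arc in 1 and 11. Of 15 immediate early genes, 3 were at least 1 higher, with Egr4 highest (1.71), and 2 at least 1 lower, Arc (-1.61) and Junb (-1.53), which overlaps Prdx2. At the 10 CPM split Arc lay at 0.03 and Junb at 0.39.

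**Figure D5:**
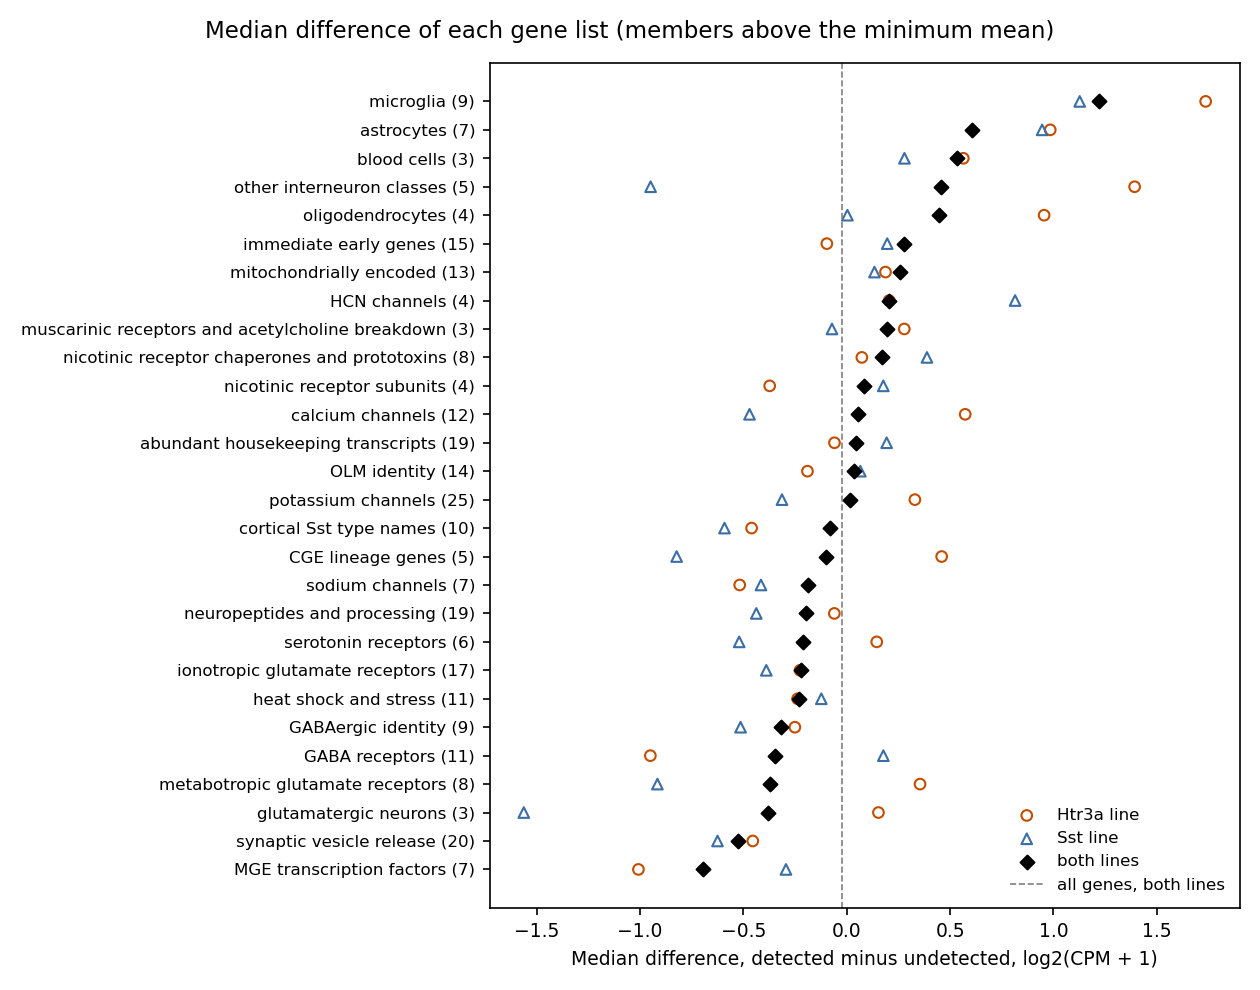
Median difference (detected minus undetected cells, log2(CPM + 1), horizontal axis) of each gene list with at least 3 members above the minimum mean, whose number stands in brackets. Diamonds are both lines together, open circles the Htr3a line, open triangles the Sst line, and the dashed line is the median of all genes, -0.02. Microglial genes lie farthest to the right, at 1.22.

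Transcripts of other cells were not even between the sides. Of 9 microglial genes, 9 were higher in detected cells, beside 49% of all genes, and 5 by at least 1, beside 9.27%. Their median was 1.22 (1.74 and 1.13 within the lines). P2ry12, a microglial purinergic receptor, was read in 11 of 16 and 10 of 30 cells (2.44, with Med12l overlapping it), and Trem2 in 10 and 10 (1.82). The summed level of the list had a median of 1222 CPM in detected cells (0.884 to 7568) and 361 CPM in undetected cells (0 to 9460). It reached 1000 CPM in 10 of 16 detected and 8 of 30 undetected cells, 6 of 10 and 2 of 13 in the Htr3a line and 4 of 6 and 6 of 17 in the Sst line. Once those 18 libraries were left out, 6 detected and 22 undetected cells remained. P2ry12 was then at -0.78, but it belongs to the list whose level chose the libraries left out. The 12 lowest and 12 highest genes named above had the sign they were chosen by. The remaining cells were among those that chose these genes, so the kept sign is no separate support. The 24 genes then lay at -2.10 or lower, or at 1.72 or higher. Whether microglial material had a part in other differences was not tested.

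Of 7 astrocyte genes above the minimum mean, 7 were higher, beside 49% of all genes, with a median of 0.61. Their summed level was 51.3 to 516 CPM in detected cells (median 199) and 0.204 to 1495 CPM in undetected cells (median 57.9), and the defining marker Aqp4 was read in 0 and 2 cells. Aldoc, which neurons also express, was at 1.66 by mean and -0.56 by summed counts. Oligodendrocyte genes were at 0.45 (3 of 4 higher), and at -0.51 without the microglia-rich libraries, with summed levels of 0.144 to 7114 CPM and 0.585 to 13314 CPM. Genes of glutamatergic neurons summed to at most 274 CPM in any cell. Blood cell genes reached 12083 CPM in 1 detected cell and at most 292 CPM elsewhere. Vascular genes summed to at most 84.2 CPM, and 0 of 6 passed the minimum mean.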

How the data were processed

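RNA from the aspirated cytosol of 46 single OLM cells was sequenced, and each library is 1 cell. Reads were handled with Trimmomatic, STAR and featureCounts on GRCm38, per the submitters' processing notes. Versions, gene annotation and strand use were not given in the sources used here. The authors deposited a table of raw read counts for 22800 gene symbols and another for 22880 Ensembl identifiers. They also deposited normalized values, a signal equal to the count divided by 1 factor per cell (100% of values within 0.1%). No molecular identifiers mark PCR copies in the deposited counts.

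The cells were divided by the Chrna2 count in the symbol table. Counts were scaled to CPM of assigned reads, log2(CPM + 1) was averaged over the cells of a side, and the means were subtracted. The size of a difference depends on the pseudocount and is not the log2 ratio of the summed levels. The 12 highest genes named above had a median of 2.64, but 1.47 with a pseudocount of 10 and 1.39 by summed counts. For the 12 lowest these medians were -3.00, -1.80 and -2.11. Intervals for shares are exact Clopper-Pearson and those for summed counts exact Poisson, at 95%. The members and gene lists were chosen with earlier results of these data known. Among 1035 pairs of libraries none were identical (r between 0.310 and 0.810). Of the symbols, 21873 matched GENCODE M21 of GRCm38 directly, 684 by an older symbol and 243 not at all.

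Named genes were the 12 highest and 12 lowest differences among genes read in at least 12 cells, with a size of at least 0.5 and the pooled sign in both lines, and with shares and summed CPM not going the other way. The 6 widest gaps each way in the share of cells with a read, among genes read in 12 to 34 cells with the same sign in both lines, were added. Sex-linked genes, predicted genes and pseudogenes were left out of both. All measured nicotinic subunit, OLM identity and cortical somatostatin type genes, and up to 3 members with the largest difference from every other list, completed the set. Other list members named were chosen after their values were seen. A few genes of that set are left out of the text.

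Alternatives were other Chrna2 minimums, thinning, each line alone, lines weighted equally, covariates, edgeR TMMwsp and DESeq2 poscounts factors, the deposited normalized values, a pseudocount of 10, summed counts, other minimum means and leaving out cells. Leaving out libraries with at least 1000 CPM of microglial genes was added after the data were seen. R 4.3.3, edgeR 4.0.16, DESeq2 1.42.0, Python 3.11.15, numpy 2.4.6, pandas 2.3.3, scipy 1.17.1 and matplotlib 3.10.9 were used, and the scripts were tested on simulated data.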

Additional observations from a re-analysis of the deposited data

Results flagged for a closer look

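The share of reads from mitochondrially encoded genes had 1 cell far from the others of its group in each line. Among the 10 Chrna2-detected cells of the Htr3a line it was 2.35% in replicate 10, and among the 6 of the Sst line it was 0.971% in replicate 5. Chance alone can mark some groups in this way, and how often it would do so here was not tested. Htr3a line replicate 10 is also the cell with 12083 CPM of blood cell genes.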

How the results depend on the processing

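Against 1038 genes at least 1 higher and 1077 at least 1 lower, a Chrna2 minimum of 5 reads gave 1599 higher, a minimum of 10 CPM 1784 higher, the Htr3a line alone 2330 higher and the Sst line alone 3237 lower (with the minimum mean applied within that line, so these differ from the within-line counts above). A pseudocount of 10 gave 131 higher and 212 lower, summed counts 1690 lower, and leaving out the microglia-rich libraries 1568 higher and 2300 lower. Leaving out 1 cell at a time gave 938 to 1420 higher and 862 to 1308 lower, the upper and lower end respectively without Htr3a line replicate 20. It gave medians over all genes of -0.09 to 0.10, shares of the Htr3a line of 60% to 66.7%, and differences in median genes detected of -322 to -19 (main value -170.5). That last difference was 37.5 at a Chrna2 minimum of 5 reads or 10 CPM, so its sign depends on the split. Without the microglia-rich libraries the sign turned for 26 named genes and 10 list medians. These include the microglial list (-0.78), P2ry12 (-0.78) and Trem2 (-0.68). Their own levels chose the libraries left out, so their fall follows from that choice and is no separate result. The others whose main value had a size of at least 1 were Calb1 (-0.0564), Grin3a (0.95), Gabrb2 (0.20) and Kcnc4 (-0.0515), with Chrm3 (-0.90) just under that size. Among values of that size the sign also turned for Calb1 (-0.98) and Gabrb2 (0.28) in the Sst line alone, Pvalb (0.0445) in the Htr3a line alone, and Aldoc (-0.56) by summed counts. With the other minimums it turned for Syn2 (0.15 at 5 reads, 0.52 at 10 CPM), Arc (0.0328) and Junb (0.39, both at 10 CPM). The cause was not tested. Over all alternatives, 192 of 2533 values of the named genes and 87 values of the list medians had the other sign. No paired analysis was possible because the replicate numbers were given in accession order and name cells only. In the undetected cells a count of 0 allows up to 3 reads, or 0.0956 to 0.532 CPM of Chrna2, by counting error only.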
